A study of Mus musculus with 1 sample.

Results

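Peripheral blood T cells whose T cell receptor (TCR) was found in more than 1 cell were described in a mouse with small cell lung cancer. The cells were chosen by the number of barcodes of their clonotype: a clonotype, as the authors grouped the TCR contigs, counted as expanded when 2 or more barcodes held it, each called a cell with a productive contig of high confidence. Of the 975 barcodes and 926 clonotypes in all, 76 cells in 27 clonotypes met this rule, 7.79% of the cells (exact 95% interval, 6.19 to 9.66). The other 899 clonotypes were each seen in a single cell and served as the comparison.

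The library came from 1 mouse on the C57BL/6 background, in which Cre from an adenovirus given into the airways deletes the conditional Rb1 and Trp53 alleles, so that tumours arise in the lung of the animal itself. The mouse was in the vehicle group, which received phosphate-buffered saline (PBS) every 3 days. From 150 µl of blood, red cells were lysed and T cells were enriched by negative selection, and transcripts and TCR chains of the same droplets were sequenced from the 5′ end. With 1 mouse and 1 library there is no replicate, no test of a condition was possible, and the cells of a clonotype share their origin; all intervals given are exact 95% intervals and cover counting error only.

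Each αβ T cell assembles its TCR from V, (D) and J segments, with bases trimmed and added at random where they join. The joined stretch, the complementarity-determining region 3 (CDR3), contacts the antigen, and daughter cells inherit it. A CDR3 found in several cells is therefore used as a mark of descent from 1 parent cell, and in blood such clones are known mainly among antigen-experienced cells, above all CD8+ cells.

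The CDR3 sequences of the β chain (TRB) are shown for the largest clonotypes and for those that recur in the results, because they are what defines the groups of cells. They are written as DNA, 5′ to 3′, from the contigs, and capitals mark the bases that lie outside the leading bases shared with other contigs of the V segment and the closing bases shared with those of the J segment.
Clonotype 1, 9 cells, TRBV12-2 and TRBJ1-6: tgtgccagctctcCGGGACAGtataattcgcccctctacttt
Clonotype 2, 8 cells, TRBV1 and TRBJ1-4: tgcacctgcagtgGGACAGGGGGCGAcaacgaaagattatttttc
Clonotype 3, 5 cells, TRBV15 and TRBJ2-5: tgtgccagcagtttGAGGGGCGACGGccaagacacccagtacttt
Clonotype 4, 4 cells, TRBV16 and TRBJ2-5: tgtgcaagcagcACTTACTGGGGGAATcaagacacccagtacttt
Clonotypes 13 and 25, 2 cells each, TRBV13-2 and TRBJ2-7: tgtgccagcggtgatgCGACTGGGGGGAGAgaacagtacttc
Clonotype 15, 2 cells, TRBV13-2 and TRBJ1-1: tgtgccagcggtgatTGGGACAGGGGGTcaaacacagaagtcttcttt
Clonotype 17, 2 cells, TRBV5 and TRBJ2-7: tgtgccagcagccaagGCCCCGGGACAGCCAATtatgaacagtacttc
Clonotype 14, 2 cells, TRBV5 and TRBJ2-3: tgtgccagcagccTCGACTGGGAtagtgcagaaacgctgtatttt

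No V segment or junction was common to all of these clonotypes. The junction of the TRB CDR3 measured 4 to 17 bases (median 12) in the 28 TRB chains of the expanded clonotypes and 0 to 21 (median 10) in the 903 chains of the single-cell clonotypes, so the ranges overlapped. The whole TRB CDR3 had a median of 14.5 codons (12 to 18) against 14 (10 to 18). The α chain (TRA) carried far fewer junction bases, with a median of 2 in both groups. The TRA chain of clonotype 2 made of TRAV8D-2 and TRAJ23 had none.
Clonotype 1, TRAV7-4 and TRAJ34: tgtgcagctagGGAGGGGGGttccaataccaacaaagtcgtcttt
Clonotype 2, TRAV8D-2 and TRAJ23: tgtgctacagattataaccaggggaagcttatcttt
Clonotypes 13 and 25, TRAV3N-3 and TRAJ9: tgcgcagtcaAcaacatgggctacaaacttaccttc

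Most of the expanded clonotypes were small. At the border of the rule stood 20 clonotypes of 2 cells just inside and the 899 of 1 cell just outside. Of the remaining clonotypes, 2 had 3 cells, 2 had 4 cells, and 1 each had 5, 8 and 9 cells. The 20 pairs held 40 of the 76 cells, and the 2 largest clonotypes, numbers 1 and 2, held 17. The barcodes of the cells of a clonotype differed from each other at 8 or more bases in all 27 clonotypes.

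Both chains were found in all 27 expanded clonotypes, in at least 1 of their cells. Of the single-cell clonotypes 705 of 899 had both (78.4%, 75.6 to 81.1). A clonotype of several cells has more chances to yield each chain: cell by cell, TRB was found in 74 of 76 expanded and 871 of 899 single cells, and TRA in 66 and 733. A pair of TRA chains was listed for clonotypes 2 and 5, and a pair of TRB chains for clonotype 3, in 4 of its 5 cells. The chain pairing of natural killer T cells, TRAV11 with TRAJ18, occurred in 0 expanded and 3 single-cell clonotypes.

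As named in the contigs, the commonest TRB segments of the expanded clonotypes were TRBV10 and TRBV16, in 4 of 27 each (14.8%, 4.19 to 33.7), and TRBJ2-7 in 6 of 27 (22.2%, 8.62 to 42.3). Among the 871 single-cell clonotypes with a TRB chain, TRBV10 was in 49 (5.63%, 4.19 to 7.37), TRBV16 in 65 (7.46%, 5.81 to 9.41) and TRBJ2-7 in 154 (17.7%, 15.2 to 20.4). TRAJ9 occurred in 4 of 27 expanded clonotypes, numbers 2, 4, 13 and 25, and in 26 of 733 single-cell clonotypes with a TRA chain (3.55%, 2.33 to 5.15). The intervals overlapped for each of these segments. Segment names come from the same contigs as the clonotypes and are given as a description. The name TRBV10 was not borne out by the RNA, where Trbv4 was the highest Trbv gene in nearly all such cells, as given below.

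Some cells outside a clonotype carried its CDR3. Clonotypes 13 and 25 had the same TRB and the same TRA CDR3 base for base, printed above; in the contigs their V segment was named TRBV13-2 in the first and TRBV12-2 joined to TRBV13-2 in the second. Single-cell clonotype 500 held that TRB too, beside another TRB and a pair of TRA chains in a barcode of 13995 UMIs. Clonotype 15 shared its TRB with the single-cell clonotypes 782 and 918, and with the latter also its TRA. These 3 cells were CD8+ with 200, 203 and 272 UMIs of Ccl5, a chemokine gene of effector and memory T cells. The TRA of clonotype 1 was seen in single-cell clonotype 470, a CD8+ cell with no TRB contig and 140 Ccl5 UMIs, and in 708, a CD4+ cell with its own TRB and no Ccl5 UMI. Joining cells by the bases of the TRB CDR3 alone, whatever the V name, gave 26 expanded clonotypes in place of 27.

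At the protein level, 4 of 27 expanded clonotypes had the TRB CDR3 of another clonotype (14.8%, 4.19 to 33.7), against 22 of 871 single-cell clonotypes (2.53%, 1.59 to 3.80). Clonotypes 13, 25 and 15 were 3 of the 4, by the identical bases above. The fourth was clonotype 1, whose CDR3 protein was written with other bases in single-cell clonotype 573, which used TRBV26. With 1 residue allowed to differ, the counts were 8 of 27 and 122 of 871.

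Non-productive contigs, which take no part in the grouping, offered a separate view of descent, since T cells often carry a failed rearrangement on their other chromosome. Of the 17 pairs of cells from the same expanded clonotype in which both cells had such a contig, 16 shared one with the same segments and CDR3 (94.1%). Of 40453 pairs of cells from different clonotypes, 12 did (0.0297%). The shared contigs lay in 6 clonotypes: 1 (TRBV10 with TRBJ2-7), 3 (TRAV12-1 with TRAJ26), 4 (TRAV8D-1 with TRAJ7), 7 (TRAV13N-2 with TRAJ18), 14 (TRBV13-1 with TRBJ1-4) and 20 (TRBV15 with TRBJ1-2). In clonotype 4 all 4 cells held it.

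The V segment could also be read in the gene expression library. Among cells with a TRB contig and a Trbv UMI, the segment of the contig was the most abundant Trbv gene in 59 of 70 expanded cells (84.3%, 73.6 to 91.9) and in 811 of 861 single cells (94.2%, 92.4 to 95.7). Nearly all exceptions had one name: where the contig was called TRBV10, Trbv4 was the highest in 9 of 9 expanded cells, of clonotypes 6, 11, 12 and 19, and in 44 of 45 single cells. In cells with 1 TRB chain of another V segment, the contig and the RNA matched in 55 of 57 expanded (96.5%, 87.9 to 99.6) and 780 of 784 single cells (99.5%, 98.7 to 99.9). The other 2 expanded cells were the pair of clonotype 14, with 9 and 12 UMIs of Trbv13-1 against 3 and 2 of Trbv5. TRBV13-1 is the segment of the non-productive contig that these cells shared. Clonotype 3, with its pair of TRB chains, had 119 UMIs of Trbv15 and 29 of Trbv13-2.

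For expression, barcodes with at least 1331 UMIs were kept, which left 72 cells of 26 expanded clonotypes and 892 single cells. Clonotype 20 lost both of its cells, and clonotypes 13 and 15 lost 1 each. The median depth was 5105.5 UMIs (2028 to 10726) in expanded and 5091 (1433 to 17444) in single cells, but the upper quartile was lower in the expanded cells, at 6351.5 against 8461.5. The groups held 375467 and 5457324 UMIs. The median share of UMIs from ribosomal protein genes was 19.4% in expanded and 26.6% in single cells, and barcodes with under 10% of such UMIs made up 4 of 72 and 143 of 892. The part of these barcodes in the results was not tested, but the gene counts without them are given below.

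Most expanded cells were CD8+. Of the 72 cells, 57 had a UMI of Cd8a or Cd8b1, the chains of the CD8 coreceptor, and none of Cd4 (79.2%, 68.0 to 87.8), against 467 of 892 single cells (52.4%, 49.0 to 55.7). Cells with Cd4, the coreceptor of helper T cells, and no Cd8a or Cd8b1 were 12 of 72 (16.7%, 8.92 to 27.3) and 254 of 892 (28.5%, 25.5 to 31.6). Both coreceptors were seen in 0 of 72 expanded cells (exact upper bound, 4.99%) and in 37 single cells (4.15%, 2.94 to 5.67). Neither was seen in 3 and 134.

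Counted by clonotype, the difference was smaller. Of the 26 clonotypes, 19 were CD8 (73.1%, 52.2 to 88.4), an interval that overlaps that of the single cells, and 6 were CD4 (numbers 6, 9, 10, 17, 19 and 21). A clonotype of several cells has more chances to show a coreceptor UMI than a single cell, so these shares were not measured alike. Clonotype 27 had no coreceptor UMI. In all 23 clonotypes with 2 or more classed cells these fell in 1 class, although the coreceptor had no part in the grouping. The T cell genes Cd3e, Cd3d, Cd3g and Trac together gave 31.6 UMIs per 10000 in expanded cells and 25 in single cells.

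**Figure D1:**
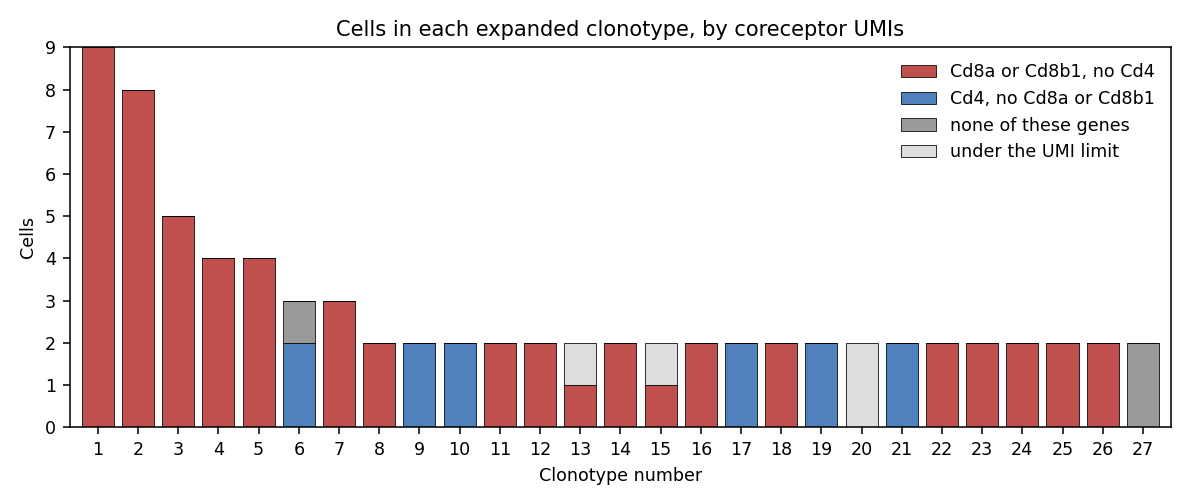
Number of cells (vertical axis) in each of the 27 expanded clonotypes (horizontal axis, clonotype number), with the bar split by the coreceptor UMIs of the cells. No bar mixes CD8 and CD4 cells; clonotypes 1 and 2 hold 9 and 8 CD8 cells, and the CD4 clonotypes have 2 or 3 cells.

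RNA of other blood cells was also counted, and most of that in the expanded cells lay in 1 barcode. The neutrophil genes S100a8, S100a9, Csf3r and Retnlg gave 226 UMIs in expanded cells (6.02 per 10000) and 6 in single cells (0.0110 per 10000), all 4 genes being seen, S100a8 the most abundant. Of the 226, 225 lay in 1 cell of clonotype 3 with 3620 UMIs, which had 115 UMIs of S100a8, 103 of S100a9 and 27 of Tyrobp, beside 2 of Cd8a, 1 of Cd8b1, 69 of Ccl5 and 0 of Cd3e. That barcode thus held neutrophil and T cell RNA together; without it the counts of genes given below became 437 and 768.

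Natural killer genes (Tyrobp, Klre1, Klrb1c and Ncr1) gave 68 UMIs in expanded and 180 in single cells, or 1.81 and 0.330 per 10000, with Ncr1 at 0 in the expanded cells. Without the barcode above, which held 27 of the 68, the rate was 1.10, still above that of the single cells. The monocyte genes were at 0.746 and 0.561 per 10000 (0.457 without that barcode), with Csf1r and Cd14 at 0, and the most abundant, Ms4a6c, had 16 UMIs. Platelet genes were at 0.772 and 0.654, B cell genes at 0.107 and 0.187, with Ms4a1 at 0, and erythroid genes at 0.0533 and 0.0586. The part of these UMIs in the results, other than the neutrophil RNA, was not tested.

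The expanded cells carried more transcripts of cytotoxic and memory T cells and fewer of naive T cells than the single cells. UMIs were pooled over the cells of each group, given per 10000, and a gene was counted as higher or lower when the ratio of these rates was at least 2 or at most 0.5, among genes with 50 or more UMIs. The limit was applied to both groups together, so a gene with few UMIs could reach it through the group where it is high. Of the 8377 genes tested, 440 were higher, which is 5.25%, and 763 lower, 9.11%, with a median ratio of 1.03. Without the barcodes of low ribosomal share the counts were 456 and 611.

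Of the 10 cytotoxic granule genes tested, 6 were higher and 0 lower, with a median ratio of 3.45. Ccl5 itself, listed with the chemokines, was the most abundant of the genes named here: 187 UMIs per 10000 in expanded and 28 in single cells, a ratio of 6.67 (6.48 to 6.86). It was seen in 55 of the 72 expanded and 244 of the 892 single cells. Nkg7, a membrane protein of cytotoxic granules, was at 23.5 and 6.96, a ratio of 3.38 (3.14 to 3.64). Gzmk, a granzyme of memory CD8+ cells, was at 5.43 and 0.528, a ratio of 10.3 (8.56 to 12.4). Gzma, a granzyme of effector cells, was at 5.62 and 0.392, a ratio of 14.3 (11.8 to 17.4), but 47.4% of its UMIs in expanded cells came from clonotype 1. Without the 2 largest clonotypes the Gzma ratio was 9.63. Gzmb, the granzyme that triggers apoptosis in target cells, was 9.79 times as high, and Prf1, the pore-forming perforin, 3.52 times. Ctsw (1.16) and Gzmm (1.0) were under the threshold, but 6 of the 8 Gzmm UMIs in expanded cells were from clonotype 2. Without the 2 largest clonotypes the Gzmm ratio was 0.329, which would count as lower.

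After each cell was thinned to 2500 UMIs, Ccl5 was seen in 55 of 69 expanded cells (79.7%) and 208 of 805 single cells (25.8%). For Gzmk the counts were 31 of 69 and 41 of 805 (unthinned, 35 of 72 and 51 of 892), and for Gzma 15 of 69 and 13 of 805 (unthinned, 15 and 18). In 81 B cells of the same library, with a median of 3668 UMIs, Ccl5 was seen in 10 (12.3%, 6.08 to 21.5), Gzmk in 0 and Gzma in 1. Ccl5 in few copies can thus be free RNA, and the share of both groups with a Ccl5 UMI was above that of B cells.

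Among the chemokines and cytokines, 2 of 5 tested were higher (Ccl5 and Ccl4), and 1 lower. Ccl4, a chemokine that attracts monocytes and T cells, had a ratio of 11 (6.04 to 19.9) on 22 UMIs. It reached the limit of 50 UMIs only with these 22, so its call was fixed by the limit. Ltb, coding for lymphotoxin β, and Tgfb1 stayed near 1 with ratios of 0.879 and 1.08. Xcl1, which attracts cross-presenting dendritic cells, had 1 UMI and a ratio of 0.220 (0.00549 to 1.27). The transcripts of the cytokines Ifng, Tnf and Il2 were under the limit of 50 UMIs, with 7, 7 and 1 UMIs in the expanded cells, and Il4, Il10 and Il17a had none.

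Of the 17 memory and effector surface genes tested, 11 were higher and 0 lower, with a median of 3.40. Cx3cr1, the receptor for fractalkine, had a ratio of 7.61, Klrg1, a receptor of terminal effector cells, 5.29, and Itgb1, the integrin β1 chain, 4.31. Itga4, the integrin chain that pairs with it, had 2.84 and Cxcr3, a receptor for interferon-induced chemokines, 3.40. Klrk1, coding for NKG2D, had 4.45, but 54.7% of its UMIs came from clonotype 1 and the ratio was 2.10 without the 2 largest clonotypes. Ly6c2 (1.01), Il2rb (1.43), Klrd1 (1.51) and Cd44 (1.95) did not reach the threshold, although Cd44 passed it, at 2.05, without the 2 largest clonotypes. Cxcr6, a receptor of tissue-homing T cells and 1 of the 11 counted as higher at 2.08, fell to 1.07 without them, as 17 of its 33 UMIs were from clonotype 1.

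Transcription factors of effector and memory cells were higher for 8 of 10, with a median of 3.88. They included Eomes (3.57) and Tbx21 (3.73), the T-box factors of memory and effector differentiation, Id2 (2.41), Zeb2 (4.61) and Rora (4.52), while Ikzf3 (1.56) and Runx3 (1.55) were not counted. Id2 was under the threshold, at 1.90, without clonotype 1. Of the checkpoint genes 4 of 7 were higher, with a median of 4.96. Tigit, an inhibitory receptor, had 5.45 (3.95 to 7.44), Lag3 8.59 (5.08 to 14.3) on 26 UMIs, and Pdcd1, coding for PD-1, 4.96 (3.16 to 7.58) on 30 UMIs. Without the 2 largest clonotypes Pdcd1 had a ratio of 3.25. Of the 26 Lag3 UMIs 12 were in the 2 cells of clonotype 9, a CD4 clonotype, and without it the Lag3 ratio was 4.83 (2.44 to 8.98). Tox, a factor of chronically stimulated cells, was at 3.41 and 2.02 per 10000, a ratio of 1.69 (1.39 to 2.03). Ctla4 (1.24) and Cd160 (0.712) were also under the threshold.

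S100, galectin and annexin genes were higher for 9 of 12, with a median of 3.22. The highest were Lgals3 (9.18), coding for galectin 3, S100a6 (5.13) and S100a4 (4.50), calcium-binding proteins of the S100 family, and Anxa2 (4.16), coding for annexin 2. Lgals1, coding for galectin 1, had 3.81. S100a6 was seen in 21 of the 26 clonotypes. Of the Lgals3 UMIs in expanded cells 39.8% came from clonotype 9, and within CD8 cells the Lgals3 ratio was 5.70, or 2.70 without the 2 largest clonotypes.

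In the opposite direction, 9 of the 13 naive and homing genes were lower and 0 higher, with a median of 0.40. Ccr7, the receptor that guides naive cells into lymph nodes, was at 1.12 UMIs per 10000 in expanded and 6.76 in single cells, a ratio of 0.165 (0.119 to 0.224). Lef1, a factor of naive cells, had 0.403, Satb1, a chromatin organiser, 0.172, and Foxp1, a factor of quiescence, 0.416. Tcf7 (0.568) and Il7r (0.618), coding for TCF-1 and the interleukin 7 receptor, stayed above 0.5. Without clonotype 1, which held 85 of its 256 UMIs, Il7r was at 0.470 and would count as lower. Klf2, a factor of quiescent and circulating T cells, was at 1.35, and S1pr1, a target of Klf2 and a receptor for exit from lymphoid tissue, was at 0.697 (0.542 to 0.885), neither past the threshold.

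In the remaining lists few genes passed the threshold. None of the 12 TCR signalling genes passed the threshold in either direction (median 1.32), with Cd3e, a chain of the CD3 complex, at 1.32 and Lck, a kinase gene, at 1.34. Of the interferon response genes 0 were higher and 1 of 12 was lower (median 0.843). Of the regulatory T cell genes 0 were higher and 1 of 8 was lower. That 1 was Foxp3, the factor that defines regulatory T cells, with 1 UMI in the expanded cells and a ratio of 0.208 (0.00518 to 1.20). Among 6 cell cycle genes tested, 1 was higher, Hmgb2 (2.79), a chromatin protein. Mki67, a proliferation marker below the limit of UMIs, had 8 UMIs in the expanded cells and a ratio of 5.54 (2.12 to 13). Among 4 innate-like genes (median 1.54), Tyrobp was higher, with 27 of its 28 UMIs in the barcode that held neutrophil RNA. Klra7 had no UMI, a ratio of 0 (0 to 0.563), or 2.22-fold lower when set at a floor of 3 UMIs over the group.

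**Figure D2:**
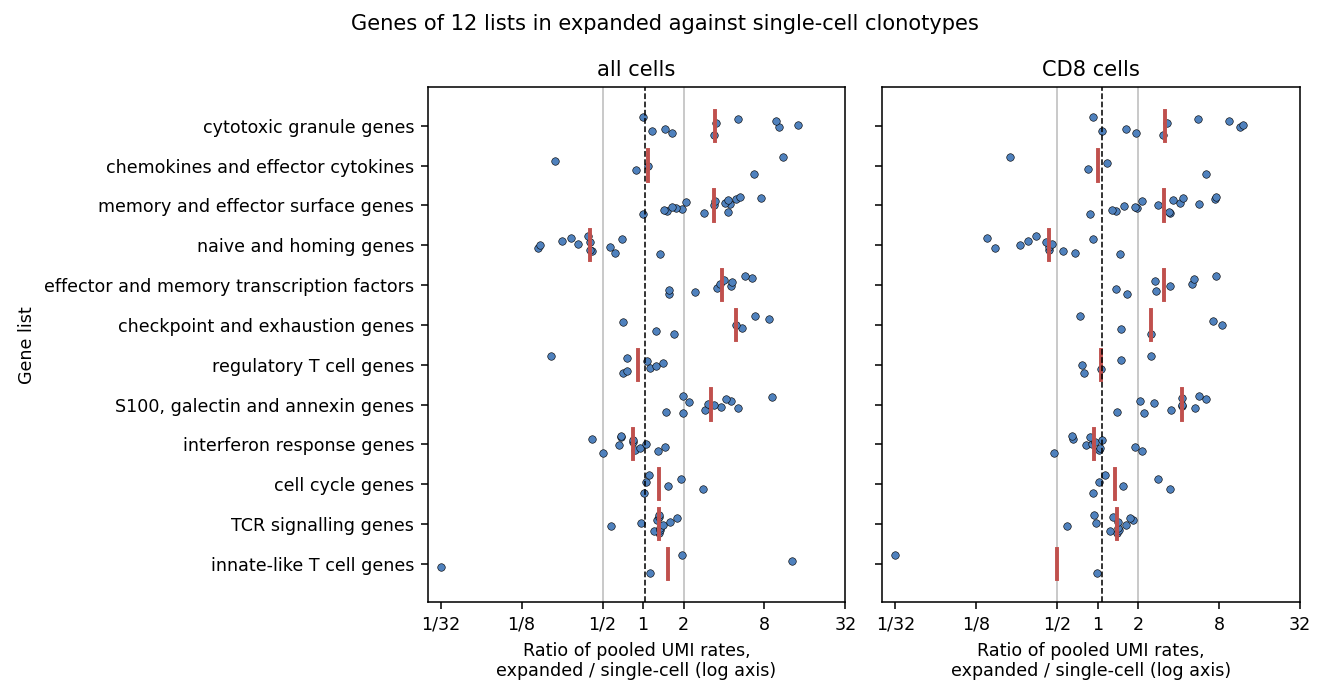
Ratio of pooled UMI rates, expanded over single-cell clonotypes (horizontal axis, log scale), for the tested genes of 12 lists (vertical axis), in all cells on the left and in CD8 cells on the right. Points are genes, red bars list medians, the dashed line the median of all tested genes, and Klra7, without a UMI in expanded cells, is drawn at the left edge. Cytotoxic, memory and S100 genes lie mostly to the right and naive and homing genes to the left of the dashed line, with medians of 3.45, 3.40, 3.22 and 0.40 in all cells.

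Among all genes with 200 or more UMIs and, for the highest, a UMI in 5 or more expanded clonotypes, the 10 highest ratios were those of Gzma, Gzmk, Lgals3, Ccl5, Tigit, S100a6, Rora, S100a4, Klrk1 and Itgb1. Lgals3 and Tigit, with 179 and 152 UMIs in the single cells, reached 200 only with their 113 and 57 in the expanded cells. The lowest was Ly6c1, a Ly6 surface protein gene, with 0 UMIs in the expanded cells against 302 in 105 single cells. Its ratio was 0 (0 to 0.179), or 6.93-fold lower when set at the same floor. Of these 302 Ly6c1 UMIs 173 were in single CD4 cells and 16 in single CD8 cells. Most expanded cells were CD8, and no difference in Ly6c1 within CD8 cells was detectable at this depth (ratio 0, interval 0 to 3.11). Within CD4 cells the ratio was also 0, with no Ly6c1 among the 59217 UMIs of the expanded cells and 173 among the 1118105 of the single cells. Next came Cpq (0.0616), Tdrp (0.0664), Il4ra (0.0941), a chain of the interleukin 4 receptor, Auts2 (0.100), Calcrl (0.129), Fntb (0.131), Gm14085 (0.142), Ppcdc (0.147) and Gm11290 (0.152). Il4ra had 2 UMIs in the expanded and 309 in the single cells, and Gm11290 15 and 1431.

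Since the CD8 share differed, the comparison was repeated within each class. In CD8 cells, 57 expanded cells of 19 clonotypes (median 5232 UMIs) were set against 467 single cells (median 7816). Of 7251 genes, 420 were higher (5.79%) and 633 lower (8.73%), with a median ratio of 1.07. The cytotoxic genes were higher for 6 of 10 (median 3.18), the memory surface genes for 10 of 16 (3.12), the transcription factors for 6 of 8 (3.10) and the S100 list for 10 of 11 (4.21), with 0 lower in each. The naive and homing genes were lower for 9 of 13 (0.437). The checkpoint genes were higher for 3 of 5 (2.48). Tox, at 3.67 against 1.48 UMIs per 10000, passed the threshold here with a ratio of 2.48 (2.01 to 3.05), and its mean over clonotypes gave 1.75. Tigit had 8.41 (5.67 to 12.4) and Pdcd1 7.20 (3.98 to 12.7), but Pdcd1 fell to 2.92 without the 2 largest clonotypes. Within CD8 cells Pdcd1 reached the limit of UMIs per gene only through the expanded cells, so its call was fixed by the limit.

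The 12 expanded CD4 cells, from 6 clonotypes (median 4887 UMIs), were compared with 254 single CD4 cells (median 3843.5). Of 3903 genes, 330 were higher (8.46%) and 614 lower (15.7%), with a median ratio of 1.01. The naive and homing genes were lower for 8 of 13 (median 0.285), and 9 of 11 S100, galectin and annexin genes (3.97) and 6 of 8 memory surface genes (2.69) were higher. For S100a6, S100a4, Lgals1 and Lgals3 most UMIs of the expanded CD4 cells lay in a single cell of clonotype 9. The counts of this list without that cell are not given. Itgb1 was at 29.0 and 3.76 per 10000, a ratio of 7.73 (6.44 to 9.26), and Lgals3 at 9.46 and 0.340, a ratio of 27.8 (18.1 to 43.2). Gzmk and Gzma had no UMI in the expanded CD4 cells, against 34 and 3 in the single cells. The cytotoxic list had 1 gene higher and 1 lower of 4 tested. Of the regulatory T cell genes 3 of 7 were higher and 0 lower (median 1.70): Izumo1r, coding for folate receptor 4, at 2.81 (1.48 to 4.96), Nt5e, coding for CD73, at 2.57 (1.13 to 5.19), and Ctla4 at 2.01 (0.933 to 3.86), on 14, 9 and 10 UMIs. Foxp3 had no UMI in the expanded CD4 cells.

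Many expanded cells expressed Ccl5, so the CD8 cells with 10 or more Ccl5 UMIs were also compared with each other, a choice made after the values were seen. They were 51 of 57 expanded CD8 cells (89.5%, 78.5 to 96.0), from 16 clonotypes, and 128 of 467 single CD8 cells (27.4%, 23.4 to 31.7), with medians of 4918 and 8909.5 UMIs. Ccl5 itself was still higher in these expanded cells, with a ratio of 2.30 (2.23 to 2.37). The groups were thus not matched in Ccl5, and the other ratios were not tested at equal Ccl5. Among 3953 genes, 154 were higher (3.9%) and 135 lower (3.42%), with a median ratio of 1.13. The surface list had 4 of 16 higher (median 1.55) and the transcription factors 3 of 8 (1.53), with 0 lower in each. The 3 factors were Bhlhe40 (3.18), Rora (2.74) and Zeb2 (2.38). Tbx21 had a ratio of 1.10 and Il2rb 0.744, against 2.67 and 1.27 over all CD8 cells, so that of Il2rb crossed 1. Ly6c2 (0.558 against 0.873) and Gzmm (0.407 against 0.932) were under 1 in both comparisons.

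The cytotoxic list had 5 of 10 higher and 1, Gzmm, lower (median 2.03). Gzma had a ratio of 4.38 (3.6 to 5.33), Gzmk 4.10 (3.36 to 4.99) and Gzmb 3.40 (2.42 to 4.76). Over all CD8 cells these ratios were 12.1, 11.4 and 9.54, so these 3 ratios were smaller here but past the threshold. Clonotype 1 held 100 of the 211 Gzma UMIs in these expanded cells, and the Gzma ratio without it was not computed here. Of the 4 checkpoint genes tested, Tigit (3.47), Pdcd1 (2.64) and Tox (2.28) were higher and Cd160, an inhibitory receptor, lower (0.255, 0.0676 to 0.685). Of the 21 Pdcd1 UMIs in these expanded cells 10 were from clonotype 2 and 5 from clonotype 1. The Pdcd1 call thus rests mostly on the largest clonotypes, and its ratio without them was not computed here. With 34 UMIs in the single cells, Pdcd1 again reached the limit of UMIs per gene only through the expanded cells. Its call was thus fixed by the limit here too. Of the naive and homing genes 5 of 12 were lower (median 0.582), among them Ccr7 (0.160) and Dapl1 (0.0396). The S100 list had 5 of 11 higher (1.96).

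**Figure D3:**
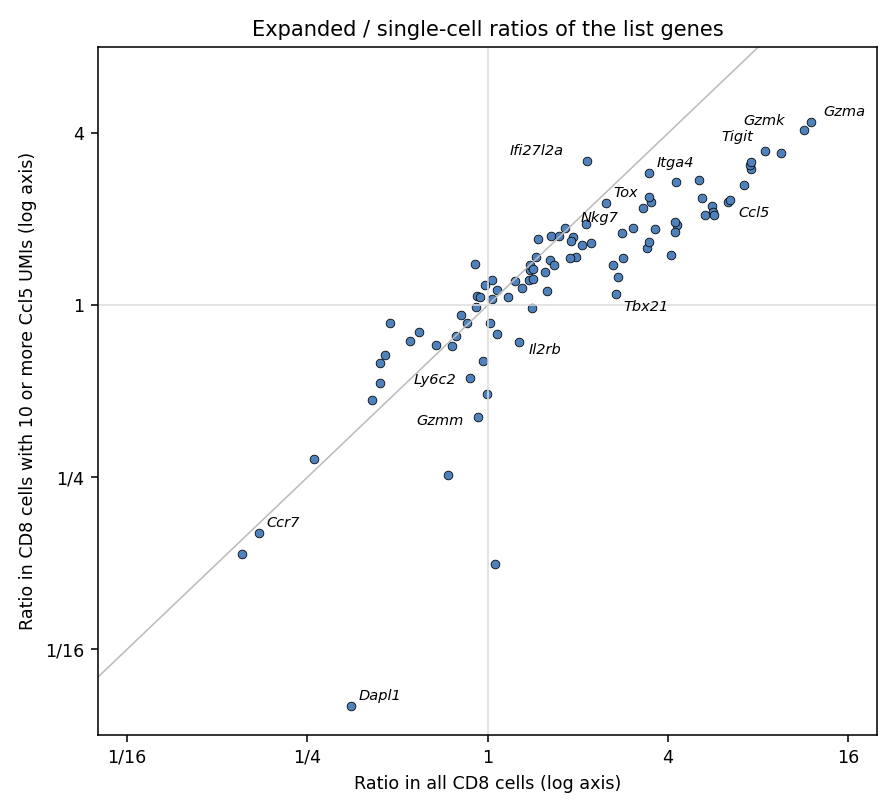
Expanded over single-cell ratios of 94 list genes, in all CD8 cells (horizontal axis) and in CD8 cells with 10 or more Ccl5 UMIs (vertical axis), both on log scales, with a diagonal of equal ratios. Gzma, Gzmk and Tigit lie high on both axes, with 4.38, 4.10 and 3.47 on the vertical one, while Tbx21 (1.10) and Il2rb (0.744) drop to about 1 or under it.

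The clonotypes differed among themselves. Of the 19 CD8 clonotypes, 14, with 48 cells, had 139 to 426 Ccl5 UMIs per 10000 (median 294), and clonotypes 22 and 13 had 33.9 and 19.1. Clonotypes 11, 12 and 14 had none, and had Nkg7 at 4.17 to 6.23, Lef1 at 7.12 to 9.18 and Ccr7 at 2.50 to 8.01 per 10000. In these 3 pairs of cells no UMI of Gzmk, Gzma, Gzmb, Prf1, Eomes, Tbx21, Itgb1 or S100a4 was found. They thus carried the transcripts of naive cells while sharing a TRB CDR3. A TRA was found in 2 cells each of clonotypes 11 and 14, and in 1 cell of clonotype 12. The TRB of clonotypes 11 and 12 was named TRBV10 in the contigs, with Trbv4 the highest Trbv gene in the RNA. Clonotype 14 is the one with a shared non-productive TRBV13-1 contig.

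**Figure D4:**
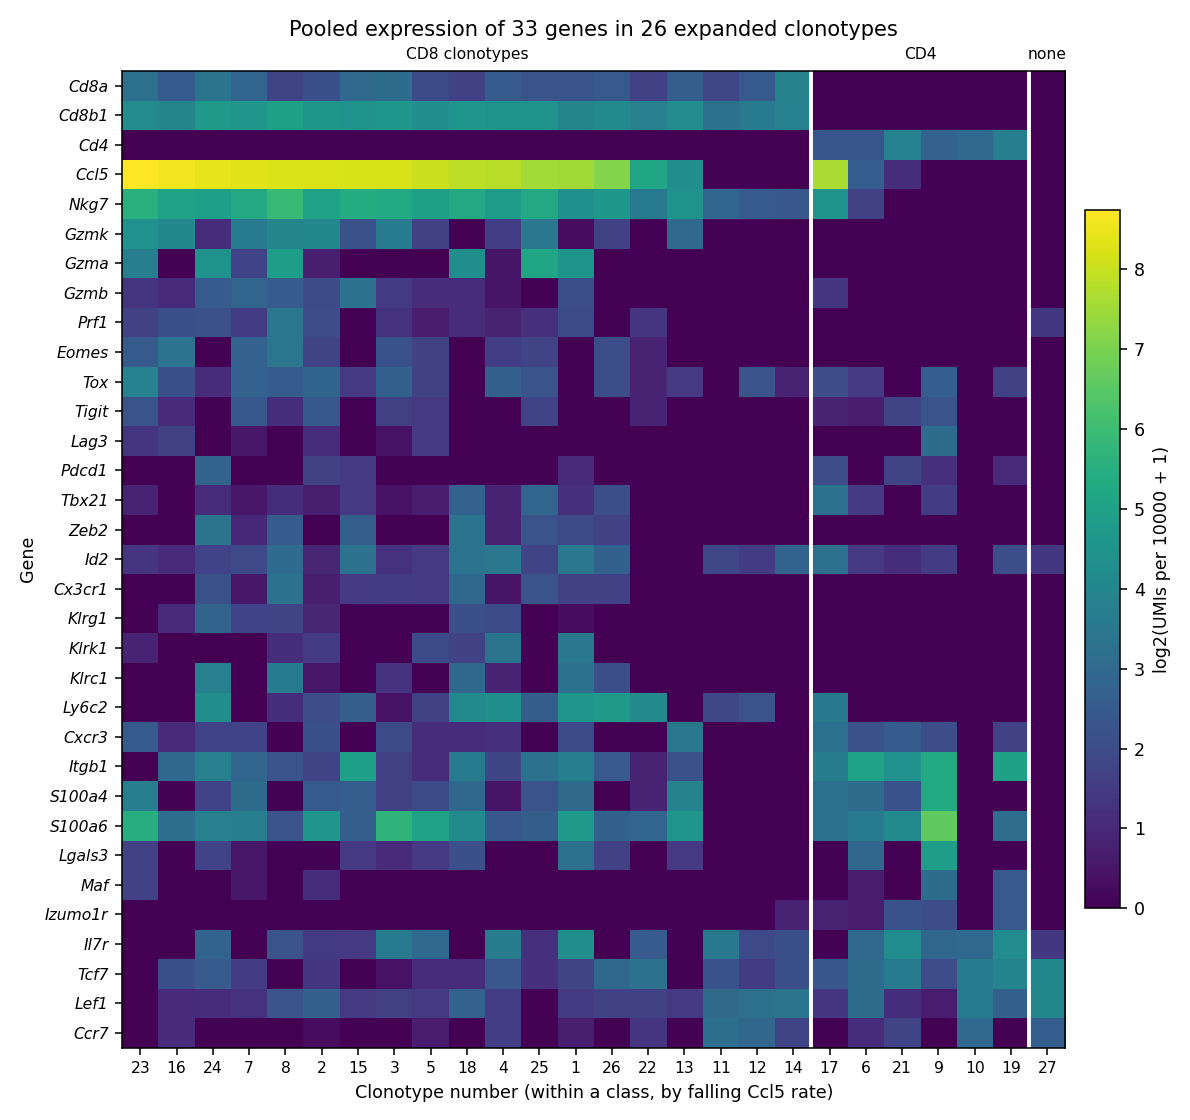
Pooled expression of 33 genes (vertical axis) in 26 expanded clonotypes (horizontal axis, by class and falling Ccl5), as log2 of UMIs per 10000 plus 1 in colour. The 14 CD8 clonotypes on the left share high Ccl5 and Nkg7 and split by Gzmk, whereas clonotypes 11, 12 and 14 lack Ccl5 and show Lef1 and Ccr7.

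Among the 14 clonotypes rich in Ccl5, Gzmk separated 11 from 3. The 11, with 35 cells, had Gzmk at 2.10 to 20.7 per 10000. All 11 had Tox UMIs (1.75 to 13.8), 10 had Eomes UMIs and 8 had Tigit UMIs. Clonotypes 1, 18 and 24, with 13 cells, had Gzmk at 0.221, 0 and 1.18. They had Gzma at 19.3 to 22.1 per 10000, against 0 to 35.0 in the 11. Klrc1, coding for NKG2A, was at 6.82 to 12.9 against 0 to 11, Itgb1 at 11.4 to 12.9 against 0 to 29.7, and Cx3cr1 at 2.21 to 6.82 against 0 to 8.55. The ranges of these 4 genes overlapped. Eomes and Tigit had no UMI in these 3 clonotypes, and Tox had UMIs in 1 of them. The division at 2 Gzmk UMIs per 10000 was drawn after the values were seen and carries no test, and it did not separate the granzymes cleanly. Of the 11, 6 also had Gzma, at 28.1, 12.2 and 35.0 in clonotypes 8, 23 and 25, and at 2.37, 0.680 and 0.42 in clonotypes 7, 2 and 4.

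The cells of a clonotype resembled each other in some genes and not in others. All 8 cells of clonotype 2 had Gzmk, at 7.28, 9.04, 12.6, 13.8, 13.9, 19.8, 22.3 and 29.9 per 10000. Of the 9 cells of clonotype 1, 8 had no Gzmk UMI and the other had 1.51. These 2 clonotypes did not overlap in Gzmk in any cell. Gzma was uneven within clonotype 1: 5 cells had none, and the others had 25.6, 36.3, 49.2 and 121. Both clonotypes had Ccl5 in every cell, from 25.1 to 302 in clonotype 1 and from 55.9 to 502 in clonotype 2. Il7r was seen in all 9 cells of clonotype 1, at 2.38 to 34.2, and in 3 of 8 cells of clonotype 2.

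The same unevenness of Gzma was seen in pairs. Clonotype 25 had 78.3 in 1 cell and 0 in the other, clonotype 23 had 27.2 and 0, and clonotype 24 had 43.5 and 0. In clonotypes 8 (33.1 and 20.9) and 18 (26.6 and 10.2) both cells had it.

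Over the 24 clonotypes with 2 or more cells, Ccl5 was in all cells of 15, in no cell of 7 and in some cells of 2. Cd8b1 was in all cells of 17 and in none of 7. Gzmk was in all cells of 8, none of 12 and some of 4. Gzma was in all cells of 2, none of 15 and some of 7, and Gzmb in all cells of 1, none of 12 and some of 11. Ccl5 and Cd8b1 were thus rarely split within a clonotype. With about 1 Gzmb UMI per cell, a cell without one may only have been missed.

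The same was measured by the difference between CD8 cells in the natural log of UMIs per 10000 plus 1, over 100 pairs within and 1496 pairs between clonotypes. The median difference in Gzmk was 0.321 within and 1.30 between clonotypes. In 34 of the 100 pairs within a clonotype both cells had no Gzmk UMI and so differed by 0. Without clonotype 1, 6 of 64 such pairs were left, and the medians were 0.438 and 1.25. They were 0.623 and 1.31 for Il7r (0.803 and 1.18 without clonotype 1) and 0.675 and 1.46 for Ly6c2 (0.376 and 1.23), with no UMI in either cell in 17 and 28 of the 100 pairs. Ccl5 differed by 0.439 and 0.685 (0.438 and 0.719). For Cd8b1 it was 0.490 and 0.456, so cells of 1 clonotype were no nearer to each other than cells of different ones. Gzmb, Prf1 and Eomes, with 68, 60 and 70 UMIs over the 72 cells, were too sparse for this measure. Most of the pairs within a clonotype came from clonotypes 1, 2 and 3, and pairs that share a cell are not independent.

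**Figure D5:**
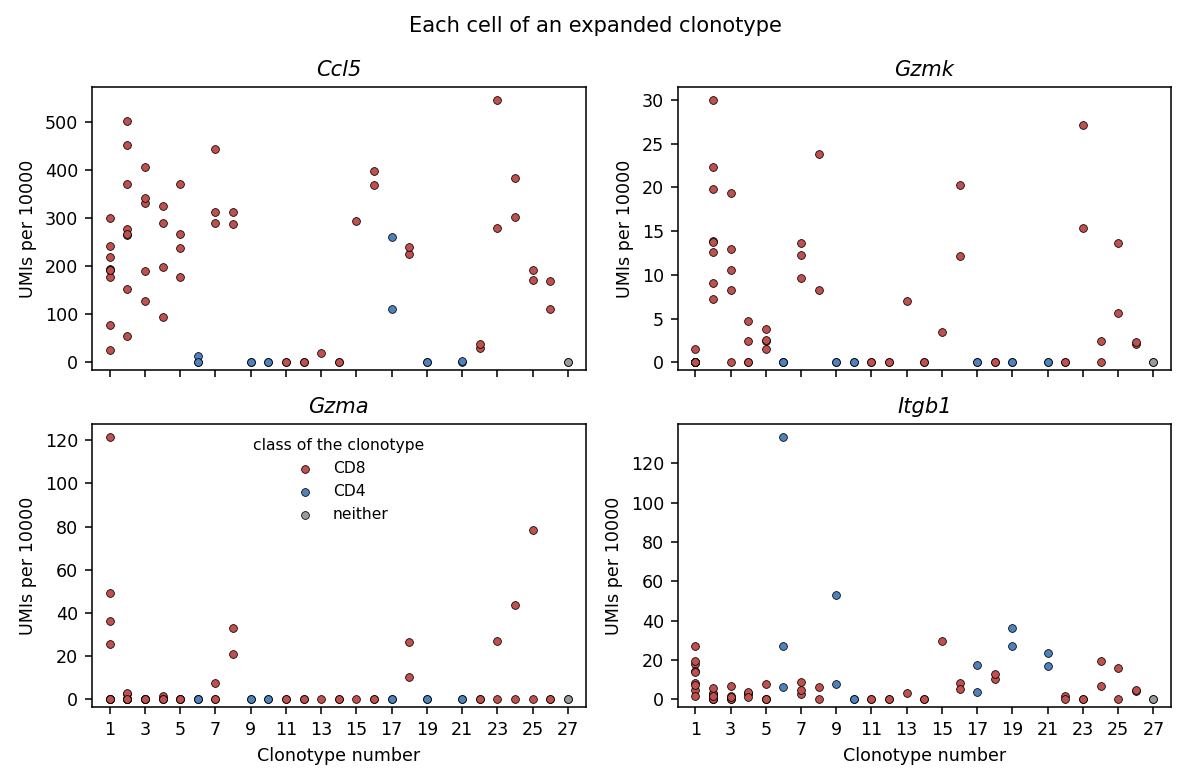
UMIs per 10000 of Ccl5, Gzmk, Gzma and Itgb1 (vertical axes) in each of the 72 cells, by clonotype number (horizontal axis), coloured by the class of the clonotype. Gzmk is present in all 8 cells of clonotype 2 and nearly absent from clonotype 1, Gzma varies within clonotype 1 from 0 to 121, and Itgb1 is highest in a cell of CD4 clonotype 6.

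The 6 CD4 clonotypes fell into different patterns. Clonotype 17, whose TRB is printed above, was the only one of the 6 with high Ccl5, at 260 and 111 per 10000 in its 2 cells. It had Nkg7 at 21.7, Tbx21 at 8.03 and Cxcr3 at 8.03, genes of type 1 helper cells. Its cells had no UMI of Gzmk or Gzma. Clonotype 9 had no Ccl5, and had Itgb1 at 7.85 and 53.1 per 10000, S100a4 at 3.93 and 55.0, and Lgals3 at 0 and 42.0. Together its 2 cells had Lag3 at 7.58 and Maf, a factor of several helper and regulatory subsets, at 7.58, with Foxp3 at 0. The pooled Lgals3 ratio of the CD4 cells therefore rested largely on 1 cell of this clonotype. That cell also had 136 UMIs of S100a6, 59 of S100a4 and 69 of Lgals1, against 17, 2 and 0 in the other cell.

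Itgb1 marked clonotypes 6, 19 and 21 too. It was at 133, 27.3 and 6.20 in the 3 cells of clonotype 6, at 27.2 and 36.3 in clonotype 19, and at 16.8 and 23.5 in clonotype 21. Clonotype 10 had no Itgb1 UMI, and had Ccr7 at 6.92, Lef1 at 11.5 and Tcf7 at 11.5. The pair of clonotype 27, without a coreceptor UMI, resembled it, with Lef1 and Tcf7 at 15.3 each and Ccr7 at 5.10. Thus 5 of the 26 clonotypes, numbers 10, 11, 12, 14 and 27, had no Ccl5 UMI and no Itgb1 UMI and had UMIs of Ccr7 and Lef1.

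Barcodes not called cells could also hold the TCRs. Of 2544 such barcodes with a TRB contig, 60 carried a TRB CDR3 of an expanded clonotype, 0.789 for each expanded cell, and 853 that of a single-cell clonotype, 0.949 for each single cell. A barcode with the TRB that clonotypes 13 and 25 share was counted once.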

How the data were processed

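Transcripts and TCR chains of T cells from 1 vehicle-treated mouse were measured in 1 droplet library. The authors processed the reads with Cell Ranger (version 4 in the matrix header, genome build GRCm38 in the submitters' processing notes) and deposited an unfiltered matrix of raw UMI counts and a contig table with read and UMI counts, segments, CDR3 and clonotype number of each contig. The clonotypes are the authors'. The read counts and lengths of contigs were not used here.

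Barcodes counted as cells from 1331 UMIs, the 99th percentile of the 3000 largest UMI totals divided by 10. UMIs were pooled per group and given per 10000, and ratios have exact conditional binomial intervals, shares exact Clopper-Pearson intervals. Genes of the TCR and immunoglobulin loci, mitochondrial genes and those of ribosomal proteins did not enter the comparison. No doublet caller was run; barcodes with more than 1 productive TRB chain were left out as an alternative. B cells (81) gave the background of free RNA. Members, lists and alternatives were chosen with earlier results of these data known. Genes were named by rule: the marker genes, the T cell genes of the study, the members of each list with most UMIs, and the 10 highest and lowest ratios among genes with 200 or more UMIs (the highest also with a UMI in 5 or more expanded clonotypes); others were picked after their values were seen, and a few list members are not reported here by name. No p-value is given because there is 1 library. Scripts ran in Python 3.11.15 with numpy 2.4.6, scipy 1.17.1, pandas 2.3.3 and matplotlib 3.10.9 and were tested on simulated data.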

Additional observations from a re-analysis of the deposited data

How the results depend on the processing

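With 1 library no replicate could be left out, and no paired analysis was possible because there is 1 sample. Other definitions of a clonotype gave 20 to 32 expanded clonotypes with 54 to 87 cells, and the CD8 share lay between 72.7% and 81.2% except for clonotypes of 3 or more cells, where it was 91.7%. Those clonotypes gave 1257 genes lower in place of 763, and the mean over clonotypes gave 1186. Thinning every cell to 2500 UMIs gave 286 genes higher in place of 440. A minimum of 20 UMIs gave 716 higher and 1213 lower, one of 200 gave 118 and 208, and a fold of 3 gave 115 and 365. In CD8 cells, alternatives chosen after seeing the data gave 955 genes lower for the mean over clonotypes in place of 633, and 154 higher and 135 lower for cells with 10 or more Ccl5 UMIs. The stricter minimum tests fewer genes and the thinning uses fewer UMIs; the cause of the other changes was not tested. Over 13 settings and 21 named genes, 249 of 273 ratios stayed within the counting interval of the main ratio and 24 left it, and no ratio over 2 or under 0.5 changed sides of 1. The Cd4 ratio, 1.08 for the main settings, ran from 0.313 to 1.42 and has no direction, and that of Tox ran from 1.10 to 2.30. The CD4 comparison rests on 12 cells, where few UMIs decide whether a ratio passes 2 or 0.5.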
